A study of Mus musculus with 5 samples.

Results

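Macrophages are tissue phagocytes that depend on the receptor CSF1R for survival, and in the mammary gland they are known for clearing dying epithelium after weaning. The RNA of 10 macrophage genes was followed in libraries of sorted mammary fibroblasts. They were the rows of the deposited table with the symbols Lyz2, Adgre1, Csf1r, Cd68, Cd14, Mrc1, Cd163, Fcgr1, Aif1 and Ptprc, 10 of 45706 rows. They were chosen by name, and all 10 had reads in every library and entered the test. None of them is a known fibroblast identity gene, and Ptprc (CD45) is a phosphatase of all leukocytes.

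The 5 libraries came from PDGFRa+ cells of Balb/c mice, sorted from mammary glands 4 and 5. Of these, 2 libraries were from nulliparous mice and 3 from mice 6 days post-weaning, a stage called InvD6 in the labels and involution day 6 here. The labels list no genotype, allele or agent for either group, and the sources used here do not give ages, the number of animals per library or the purity of the sort. The series calls the libraries of each group biological replicates. The groups differ in pregnancy and lactation as well as in involution, and these cannot be told apart.

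Deposited values were read as log2 of a scaled count plus an offset of about 11.8, since a row without reads sits at about 3.57. That form is not stated in the sources used here. Some values lie below that of a row without reads, down to 3.44, so differences of weak genes are approximate. Unlogged and without the offset, deposited values are called units here, and 1 read alone adds between 0.931 and 1.09 units. The libraries summed to between 37564357 and 43002044 units. The labelled cell type showed in its own markers, since 10 fibroblast genes, among them Pdgfra, Col1a1 and Dcn, took 108297 to 139099 units-per-million (ppm) of the summed units of a library. The 10 macrophage markers together took 130 and 61.3 ppm in nulliparous replicates 1 and 2. They took 326, 205 and 114 in involution replicates 1, 2 and 3. The groups overlapped, since involution replicate 3 lay below nulliparous replicate 1. In bulk RNA, fewer cells of a type and less RNA per cell cannot be told apart.

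**Figure D1:**
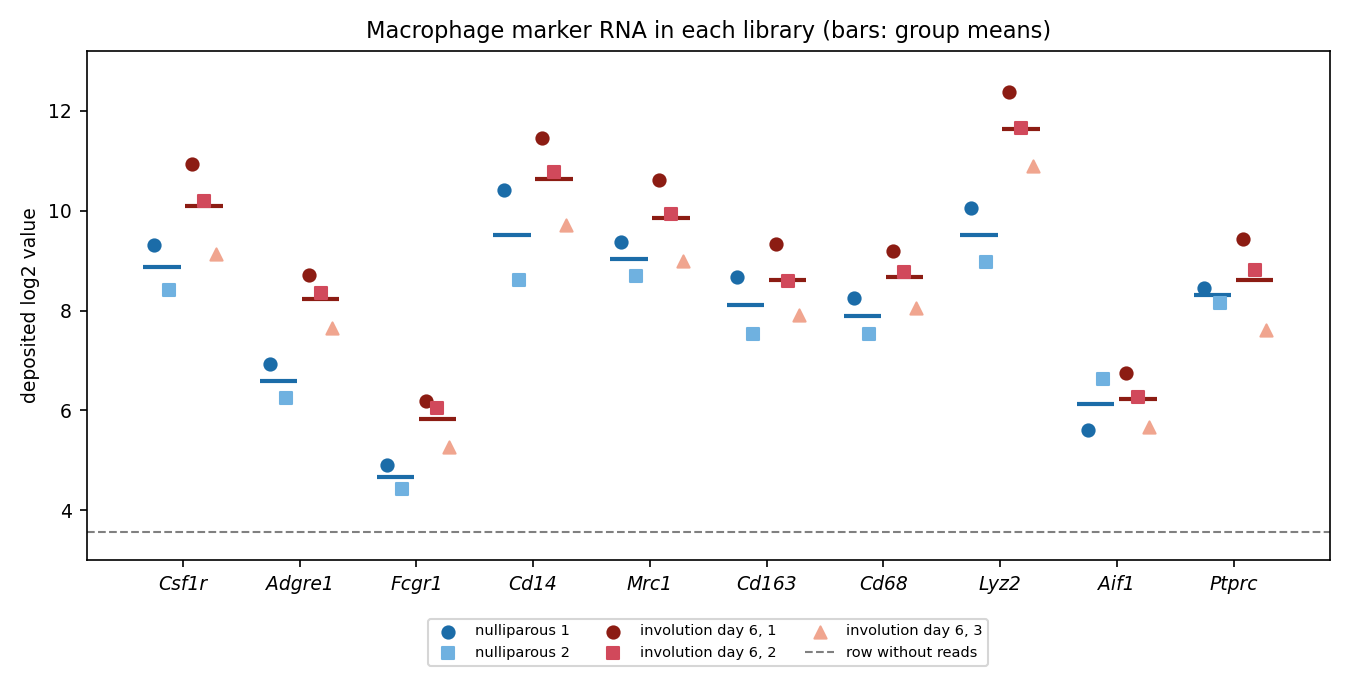
Deposited log2 value (y axis) of each of the 10 macrophage markers (x axis) in the 5 libraries, with a horizontal bar at each group mean and a dashed line at the value of a row without reads. Involution replicate 1 is highest for 10 of 10 markers, and involution libraries lie above both nulliparous libraries for Lyz2, Adgre1 and Fcgr1.

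Does fibroblast RNA at involution day 6 carry more macrophage transcripts than that of the nulliparous gland? All 10 markers had a higher mean at involution day 6, except that Aif1 differed by -0.014 when libraries were scaled to the same total, and Lyz2 and Adgre1 alone passed the test. Lyz2, which encodes lysozyme, rose 4.36-fold, and Adgre1, which encodes the surface receptor F4/80, rose 3.12-fold. The call rule was an adjusted p under 0.05 in limma over 15912 genes, with Benjamini-Hochberg adjustment, and it called 6.65% of all genes higher and 4.66% lower. The count of 2 of 10 higher and 0 of 10 lower is to be read against these shares. The median log2 difference of the 10 markers was 0.97, against -0.03 over all genes tested. Without involution replicate 1 or 2, 0 of 10 markers passed in limma. All genes called higher then numbered 710 and 447, against 1058 in the chosen fit, so fewer genes passed in general. In these fits 3 and 3 of the markers had an unadjusted p under 0.05, as had 3996 and 3411 of all genes. Leaving out a nulliparous library leaves 1 in that group, so only differences are given. Without nulliparous replicate 1 or 2 that of Lyz2 was 2.66 and 1.59, and that of Adgre1 1.98 and 1.31. Without involution replicate 3 Lyz2, Adgre1 and Fcgr1 passed in limma, and 786 of all genes were called higher. In that fit 8 of 10 markers had an unadjusted p under 0.05, as had 4315 of all genes. When every row with reads was tested, which called 1.14% of 28311 genes higher, 0 of 10 markers passed in limma. In the chosen fit 3 of 10 markers had an unadjusted p under 0.05, as had 4604 of the 15912 genes, so this count is near that of genes in general.

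Replicates of 1 group were far apart for these genes. Nulliparous replicate 1 exceeded replicate 2 for 9 of 10 markers, by up to 3.57 times in units, while for Aif1 the ratio was 0.423. Involution replicate 1 exceeded replicate 3 for 10 of 10 markers, by 2.14 to 3.67 times. The median residual SD of the markers was 0.73 on the log2 scale, against 0.16 over all genes tested, and a marker's residual SD was up to 8.62 times the SD that limma's prior expects at its level.

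**Figure D2:**
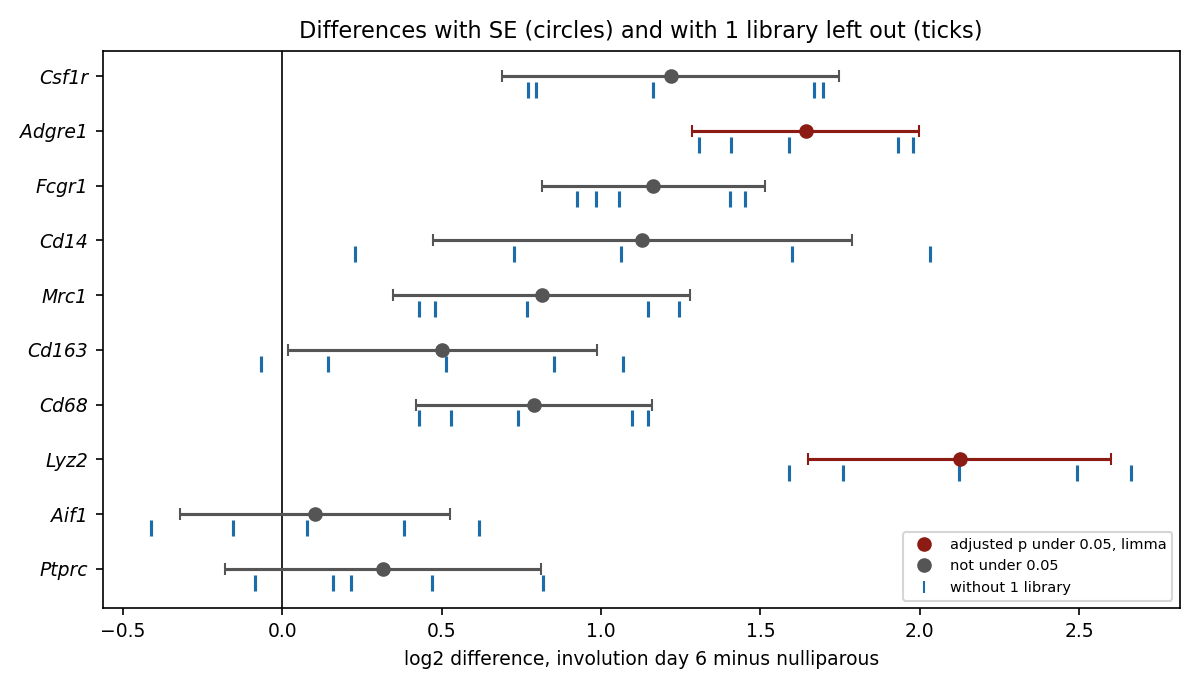
Log2 difference between the group means, involution day 6 minus nulliparous (x axis), for each marker (y axis). Bars are limma's moderated SE (n = 2 and 3), and ticks are the 5 differences with 1 library left out. Lyz2 and Adgre1, in red, passed the test, and ticks of Cd163, Aif1 and Ptprc fall on both sides of 0.

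Csf1r encodes the receptor for CSF1 and IL-34, the growth factors on which macrophages depend. It lies on chromosome 18 from 61100598 to 61132149 on GRCm38. It stood at 9.32 and 8.42 in nulliparous replicates 1 and 2 and at 10.93, 10.20 and 9.14 in involution replicates 1, 2 and 3. Involution replicate 3 lay below nulliparous replicate 1, so the groups overlapped. The log2 difference of 1.22 ± 0.53 (limma's moderated SE, n = 2 and 3) did not pass (adjusted p = 0.191 in limma). The annotation places Hmgxb3 on the opposite strand with 873 shared exon bases, and the library kit does not mark strand. Hmgxb3 lay between 10.21 and 10.44 in the 5 libraries, and reads in the shared stretch cannot be assigned to either gene.

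Adgre1 encodes F4/80, an adhesion receptor used to identify mouse macrophages, on chromosome 17 from 57358691 to 57483527. Its values were 6.93 and 6.26 in the nulliparous libraries and 8.70, 8.34 and 7.65 in the involution libraries. The groups did not overlap, as for 3 of 10 markers. Over all genes tested, 21.9% had every involution library above both nulliparous libraries and 25.1% had every one below. The difference was 1.64 ± 0.36 (adjusted p = 0.0365 in limma).

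Fcgr1 encodes CD64, the high-affinity receptor for IgG, on chromosome 3 from 96282909 to 96293969. It was the weakest of the 10 markers, at 4.91 and 4.43 in the nulliparous libraries and 6.19, 6.05 and 5.26 at involution day 6. Again every involution library lay above both nulliparous libraries. The difference of 1.16 ± 0.35 did not pass (adjusted p = 0.0861 in limma). With the offset removed and 1 unit added it was 1.67, since the offset understates changes near 3.57.

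Cd14 encodes the co-receptor for bacterial lipopolysaccharide, on chromosome 18 from 36725067 to 36726798. It stood at 10.41 and 8.61 in the nulliparous libraries and 11.45, 10.77 and 9.70 at involution day 6. The nulliparous replicates were 3.57 times apart in units, and nulliparous replicate 1 exceeded involution replicate 3. Its difference was 1.13 ± 0.66 (adjusted p = 0.311 in limma), and it ran from 0.23 to 2.03 when 1 library was left out.

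Neither scavenger receptor passed the test. Mrc1, the mannose receptor CD206 on chromosome 2 from 14229392 to 14332057, was at 9.37 and 8.70 in the nulliparous libraries and 10.62, 9.94 and 8.98 at involution day 6. The difference of 0.81 ± 0.47 did not pass (adjusted p = 0.306 in limma). Cd163, which takes up haemoglobin bound to haptoglobin, lies on chromosome 6 from 124304656 to 124330527. It was at 8.68 and 7.54 in the nulliparous libraries and 9.33, 8.59 and 7.91 at involution day 6. For both genes nulliparous replicate 1 lay above involution replicate 3, and the Cd163 difference of 0.50 ± 0.48 (adjusted p = 0.542 in limma) became -0.065 without nulliparous replicate 2.

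Among the intracellular markers, Lyz2 had the largest difference of the 10. Lyz2 encodes lysozyme M, which cleaves bacterial cell walls, and lies on chromosome 10 from 117277331 to 117282321. It stood at 10.05 and 8.98 in the nulliparous libraries and 12.37, 11.65 and 10.90 at involution day 6. The groups did not overlap, and the difference was 2.12 ± 0.48 (adjusted p = 0.0398 in limma). The residual SD of Lyz2 was 0.74, against 0.11 that limma's prior expects at its level. With a robust prior Lyz2 did not pass (adjusted p = 0.0815 in limma). Over all alternatives its adjusted p ran from 1.58e-04 to 0.266 and that of Adgre1 from 0.00115 to 0.266 in limma. The lowest value of each came from a fit with the replicate number as a block, which is not taken as a pairing.

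Lyz2 has a near-identical neighbour, Lyz1, on chromosome 10 from 117287797 to 117292868, so reads of either gene could be assigned to the other. Of the 444 coding bases before the stop codon 22 differ (95.0% identical), and 15.4% of the 50-base runs of Lyz2 transcripts also occur in Lyz1. The first 150 coding bases of each, from GENCODE M21 on GRCm38 (both on the minus strand, 5′ to 3′), are shown because 14 of the 22 differences lie here. Capitals mark the bases that differ.
Lyz2: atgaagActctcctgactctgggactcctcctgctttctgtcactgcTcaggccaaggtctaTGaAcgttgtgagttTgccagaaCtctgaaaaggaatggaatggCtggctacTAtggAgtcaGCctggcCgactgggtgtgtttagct
Lyz1: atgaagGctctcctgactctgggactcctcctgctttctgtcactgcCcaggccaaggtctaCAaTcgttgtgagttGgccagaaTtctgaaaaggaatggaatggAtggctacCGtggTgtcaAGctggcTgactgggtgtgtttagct
Lyz1 stood at 5.83 and 5.21 in the nulliparous libraries and 6.99, 6.66 and 5.53 at involution day 6. Its groups overlapped and its difference of 0.88 ± 0.46 did not pass (adjusted p = 0.271 in limma). Lyz2 was above Lyz1 in 5 of 5 libraries.

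Cd68 encodes macrosialin, a glycoprotein of lysosomes, on chromosome 11 from 69664213 to 69666153. It was at 8.24 and 7.53 in the nulliparous libraries and 9.19, 8.77 and 8.06 at involution day 6, and nulliparous replicate 1 exceeded involution replicate 3. Its difference was 0.79 ± 0.37 (adjusted p = 0.219 in limma). Aif1, the actin-binding protein IBA1 on chromosome 17 from 35170991 to 35176068, did not follow the other markers. It was higher in nulliparous replicate 2 (6.64) than in replicate 1 (5.61), and stood at 6.74, 6.28 and 5.67 in the involution libraries. Its difference was 0.10 ± 0.42 (adjusted p = 0.895 in limma).

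Ptprc, on chromosome 1 from 138062861 to 138175708, marks leukocytes in general. It was at 8.46 and 8.15 in the nulliparous libraries and 9.42, 8.82 and 7.61 at involution day 6. Involution replicate 3 was the lowest of all 5. The difference of 0.32 ± 0.50 was smaller than its SE (adjusted p = 0.720 in limma).

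Per kilobase of annotated exon, the markers stood in the order Lyz2, Cd14, Cd68, Csf1r, Mrc1, Cd163, Adgre1, Aif1, Ptprc and Fcgr1, ranked by the mean of the group means. Lyz2 was at 586 ± 299 units per kb (SD, n = 2) in the nulliparous libraries and 2631 ± 1299 (SD, n = 3) at involution day 6. Fcgr1, at the other end, was at 5.38 ± 2.33 and 18.3 ± 7.10 units per kb. Lyz2 exceeded Cd14, Cd14 exceeded Cd68 and Cd68 exceeded Csf1r in 5 of 5 libraries, whereas Csf1r exceeded Mrc1 in 4 and Cd163 exceeded Adgre1 in 2 of 5 libraries. The sorting receptor Pdgfra was at 5971 and 6207 units per kb in the nulliparous libraries and at 6952, 6028 and 5283 at involution day 6. Csf1r was at 109 and 57.3 units per kb in the nulliparous libraries and 337, 202 and 95.4 at involution day 6. Exon lengths were those of all annotated isoforms joined, 18.3 kb for Ptprc, and the isoforms in these cells are unknown.

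The share of each marker in the summed marker units is given as a description. Lyz2 supplied 21.5% and 20.6% of the summed marker units in the nulliparous libraries and 37.7%, 36.6% and 40.5% at involution day 6. Cd163 supplied 8.15% and 7.30% in the nulliparous libraries and 4.50%, 4.27% and 4.88% at involution day 6. Ptprc supplied 6.97% and 11.4%, against 4.81%, 5.04% and 3.92%. Over the 10 markers, the shares of 3 (Lyz2, Adgre1 and Fcgr1) were higher in every involution library, those of 4 (Cd68, Mrc1, Cd163 and Ptprc) were lower, and those of 3 (Csf1r, Cd14 and Aif1) overlapped. Shares of a sum constrain each other, and a larger share of Lyz2 lowers those of the rest. The counts of 3 and 4 are therefore not separate results, and no share over all genes was computed beside them.

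Set against Ptprc of the same library, Lyz2, Adgre1, Csf1r, Mrc1 and Fcgr1 were higher in all 3 involution libraries than in both nulliparous libraries, 5 of 9 markers, and 0 of 9 were lower. Of all genes tested, 2.42% were higher and 5.93% lower in this way. A gene that is steady across libraries takes on the spread of Ptprc, whereas one that moves with Ptprc loses spread. The involution SD of Csf1r was 0.90 alone and 0.08 against Ptprc, while the nulliparous SD of Aif1 rose from 0.73 to 0.94. The shares over all genes are therefore not a like background for the markers. Lyz2 lay above Ptprc by 1.59 and 0.83 on the log2 scale in the nulliparous libraries and by 2.95, 2.83 and 3.29 at involution day 6. Csf1r lay above Ptprc by 0.86 and 0.27, then by 1.51, 1.38 and 1.52. Adgre1 stood at -1.53 and -1.89 relative to Ptprc in nulliparous libraries, and at -0.72, -0.48 and 0.04 in involution libraries. Cd68, Cd14, Cd163 and Aif1 overlapped, at 0.22 and -0.61 against -0.09, -0.23 and 0.30 for Cd163. These values are a description, since an exact two-sided permutation test of 2 against 3 libraries cannot give a p below 0.2.

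**Figure D3:**
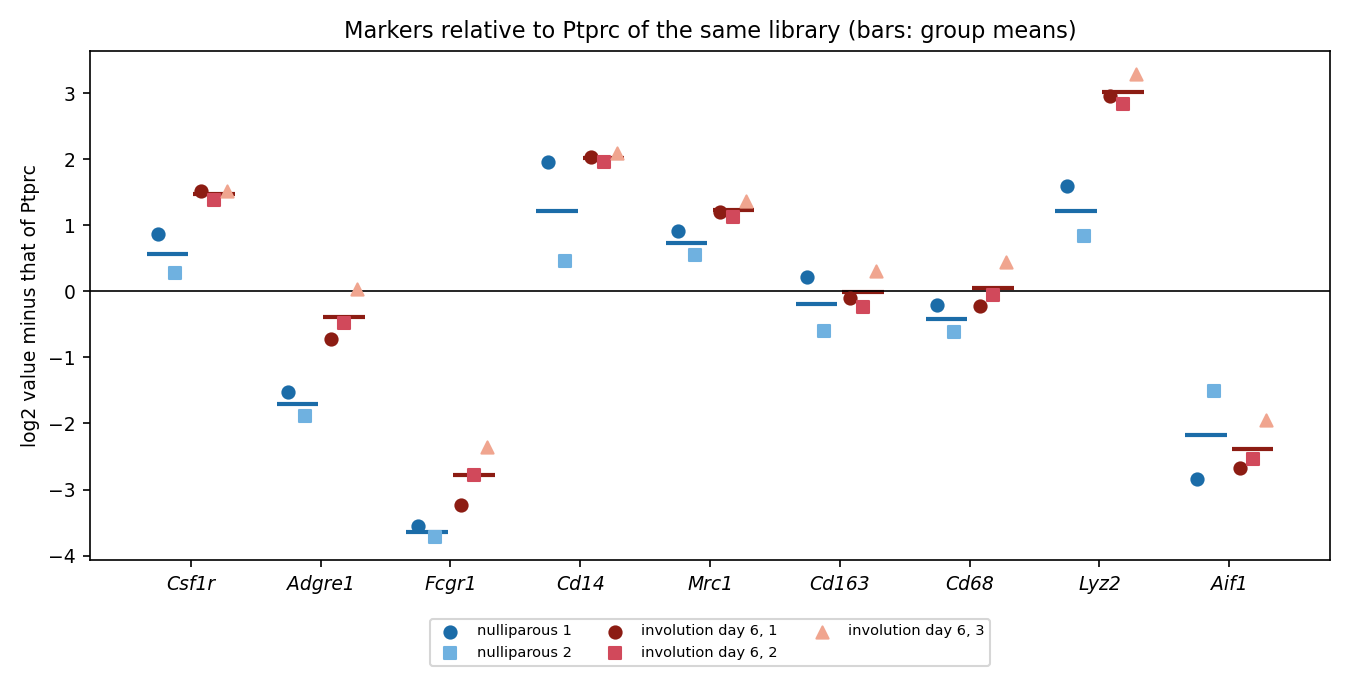
Log2 value of each marker minus that of Ptprc in the same library (y axis) for the other 9 markers (x axis), with bars at the group means and a line at 0, where a marker equals Ptprc. The involution libraries of Lyz2 lie between 2.83 and 3.29 and its nulliparous libraries at 1.59 and 0.83.

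The markers moved together from library to library, Aif1 apart. Pearson's r between each marker and the mean of the other 9 over the 5 libraries ran from 0.805 for Ptprc to 0.999 for Csf1r, and was 0.253 for Aif1. The 5 points include the group difference and serve as a description. Among 1632 other genes with a mean of at least 100 units above the offset and a range of at least 1, those most like the marker mean were Tyrobp, Nckap1l, Rnf144b, Il10ra, Itgb2, Myo1f, Pld4, Laptm5, Ctsc and Clca3a2, with r from 0.992 to 0.999 over the same 5 libraries. Tyrobp stood at 6.69 and 5.90 in the nulliparous libraries and 8.31, 7.57 and 6.64 at involution day 6, and its groups overlapped as those of Csf1r did.

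Promoters of the markers were searched because most of them shared this pattern. RefSeq windows of 250 bases before to 50 after the gene start, on GRCm38.p6, were matched for 7 of the 10 markers. Adgre1, Csf1r and Cd14 were not matched. The letters AGGAAGT or their complement ACTTCCT, a core bound by ETS factors such as the macrophage factor PU.1, occurred in the windows of Lyz2, Mrc1, Fcgr1 and Ptprc, 4 of 7 genes, and in 10.7% of 27025 genes with a window. The windows of Lyz2 (minus strand, chr10:117282223-117282522), Mrc1 (plus strand, chr2:14229164-14229463) and Fcgr1 (minus strand, chr3:96293920-96294219) are shown as examples of macrophage genes with the letters, which stand in capitals. A match is a description and not a binding site. The letters were chosen after the sequences were seen, so 4 of 7 beside 10.7% is not a test. The letters TATAAA or their complement TTTATA, also searched, occurred in 1 of 7 genes and in 15.7% of genes with a window.
Lyz2: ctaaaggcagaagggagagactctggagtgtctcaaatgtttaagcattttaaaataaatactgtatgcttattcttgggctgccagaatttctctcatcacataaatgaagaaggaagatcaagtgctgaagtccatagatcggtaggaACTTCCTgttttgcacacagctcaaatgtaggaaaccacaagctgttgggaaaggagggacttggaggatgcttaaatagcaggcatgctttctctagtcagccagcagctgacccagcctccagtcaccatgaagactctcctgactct
Mrc1: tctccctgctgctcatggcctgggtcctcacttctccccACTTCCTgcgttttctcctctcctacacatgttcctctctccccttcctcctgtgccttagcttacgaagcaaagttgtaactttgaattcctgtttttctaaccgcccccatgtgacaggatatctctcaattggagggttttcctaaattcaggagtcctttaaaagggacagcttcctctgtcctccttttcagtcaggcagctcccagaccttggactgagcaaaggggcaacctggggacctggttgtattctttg
Fcgr1: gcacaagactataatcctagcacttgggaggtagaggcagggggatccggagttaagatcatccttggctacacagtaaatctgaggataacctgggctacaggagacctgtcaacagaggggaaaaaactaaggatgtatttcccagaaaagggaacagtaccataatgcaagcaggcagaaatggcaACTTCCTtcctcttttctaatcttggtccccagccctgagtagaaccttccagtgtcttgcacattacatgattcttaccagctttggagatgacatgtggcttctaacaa

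The receptor's ligands and the relatives of CSF1 signalling were measured in the same libraries. Csf1, which encodes the main ligand of CSF1R, was at 13.61 and 13.99 in the nulliparous libraries and 13.98, 14.12 and 14.44 at involution day 6. The groups overlapped, and the difference of 0.37 ± 0.18 did not pass (adjusted p = 0.223 in limma). Il34, the second ligand, was at 10.49 and 10.41 and then at 9.68, 10.22 and 9.92, lower in all involution libraries without passing (adjusted p = 0.1003 in limma). Of the 6 genes of this list that were tested, Csf2rb, which encodes the shared beta chain of the GM-CSF receptor, rose 2.75-fold (adjusted p = 0.0358 in limma) and 0 fell. Csf2, the GM-CSF gene, was below the filter on low values.

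Other genes of macrophages were also higher in part. Of 76 genes in 6 lists, described next, 71 were tested, 20 rose, 0 fell and 51 did not pass, with a median difference of 0.89. Over all genes tested, 6.65% were called higher and 4.66% lower. Of the 20, Fcgr4, Clec7a, Il10, Trem2 and Atp6v0d2 had a nulliparous mean below the filter on low values. These 5 entered the test only through the involution libraries, where they are high, so the count and median are a description and not support. When every row with reads was tested, 9 rose, and 1.14% of all genes were called higher. The counts of each list below are to be read against the same shares. Without involution replicate 1, 2 or 3 the count of 20 became 15, 10 and 23. All genes called higher went from 1058 to 710, 447 and 786 in these fits. The count of 20 also fell without either nulliparous library, which leaves 1 library in that group. Several of these genes are also expressed by fibroblasts, and a leukocyte share of their RNA was not tested.

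Among 20 phagocyte receptor and oxidase genes, of which 19 were tested, 5 rose and 0 fell, with a median of 1.05. Clec7a, the receptor for fungal beta-glucan, rose 8.06-fold and was at 4.62 and 3.92 in the nulliparous libraries and 7.95, 7.22 and 6.67 at involution day 6. Mpeg1, a pore-forming protein of phagocytes, rose 6.11-fold, Itgax, the integrin CD11c, 5.08-fold, Fcgr4, an IgG receptor, 2.73-fold and Cyba, an oxidase subunit, 1.44-fold. Folds here are on the deposited scale. In the nulliparous libraries Clec7a was at 12.8 and 3.33 units and Fcgr4 at 3.57 and 4.32, so their folds depend on the offset. With the offset removed and 1 unit added, the folds of Clec7a and Fcgr4 were 18.6 and 6.51. For each of these 5 genes every involution library lay above both nulliparous libraries. Sirpa, which inhibits phagocytosis, lay at 12.68 to 12.79. Of 11 C1q and protease genes, 3 rose and 0 fell, with a median of 1.33. These were Ctss, which encodes cathepsin S (4.58-fold), Ms4a7 (4.39-fold) and Cd86, a costimulatory ligand (3.09-fold), and with the offset removed and 1 unit added Ms4a7 and Cd86 were 6.78-fold and 4.69-fold higher. C1qa, the complement subunit with the highest mean of that list, was 2.44-fold higher without passing (adjusted p = 0.0816 in limma).

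Of 13 genes known from lipid-associated macrophages, 9 rose and 0 fell, with a median of 1.59, and 7 rose when every row with reads was tested. Atp6v0d2, a proton pump subunit, was at 2.27 and 4.22 units in the nulliparous libraries and 310, 419 and 275 at involution day 6. It passed the test, but a fold over so few units depends on the offset and none is given. Ctsk, which encodes cathepsin K, rose 5.57-fold, Gpnmb, a lysosomal glycoprotein, 5.40-fold and Lgals3, galectin 3, 3.01-fold. In units, Gpnmb was 1.13 times, Ctsk 1.17 times and Lgals3 0.874 times as high in involution replicate 1 as in replicate 3, whereas Csf1r was 3.53 times as high. Trem2, a lipid receptor of macrophages, rose 5.60-fold on the deposited scale and was 3.10 times as high in replicate 1 as in replicate 3. Its nulliparous mean was below the filter on low values, so its fold over the nulliparous libraries also depends on the offset. Lpl, the lipoprotein lipase gene with the highest mean of the list, differed by -0.11 (adjusted p = 0.784 in limma).

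Genes of resident and alternatively activated macrophages gave 1 call in each list. Of 11 resident and scavenger genes, 10 were tested and Ccl24, an eosinophil chemokine, rose 2.19-fold while 0 fell, with a median of 0.54. Stab1, a scavenger receptor, differed by 0.78 (adjusted p = 0.343 in limma), and Lyve1, a hyaluronan receptor, by -1.28 (adjusted p = 0.199 in limma). Of 10 alternative activation genes, 7 were tested, Il10, an anti-inflammatory cytokine, rose 3.06-fold (5.79-fold with the offset removed) and 0 fell, with a median of -0.14. Il10 was at only 6.85 and 7.50 units in the nulliparous libraries, so its fold also depends on the offset. Il4ra, a receptor chain for IL-4, differed by -0.53 (adjusted p = 0.311 in limma), and Chil3 was under 3 units in every library. Among 11 myeloid transcription factors Irf8 rose 2.68-fold and 0 fell, with a median of 0.35. Spi1, which encodes PU.1, was at 5.94 and 5.07 in the nulliparous libraries and 7.53, 7.01 and 6.50 at involution day 6, and did not pass (adjusted p = 0.0589 in limma). Maf had the highest mean of that list and differed by -0.13.

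**Figure D4:**
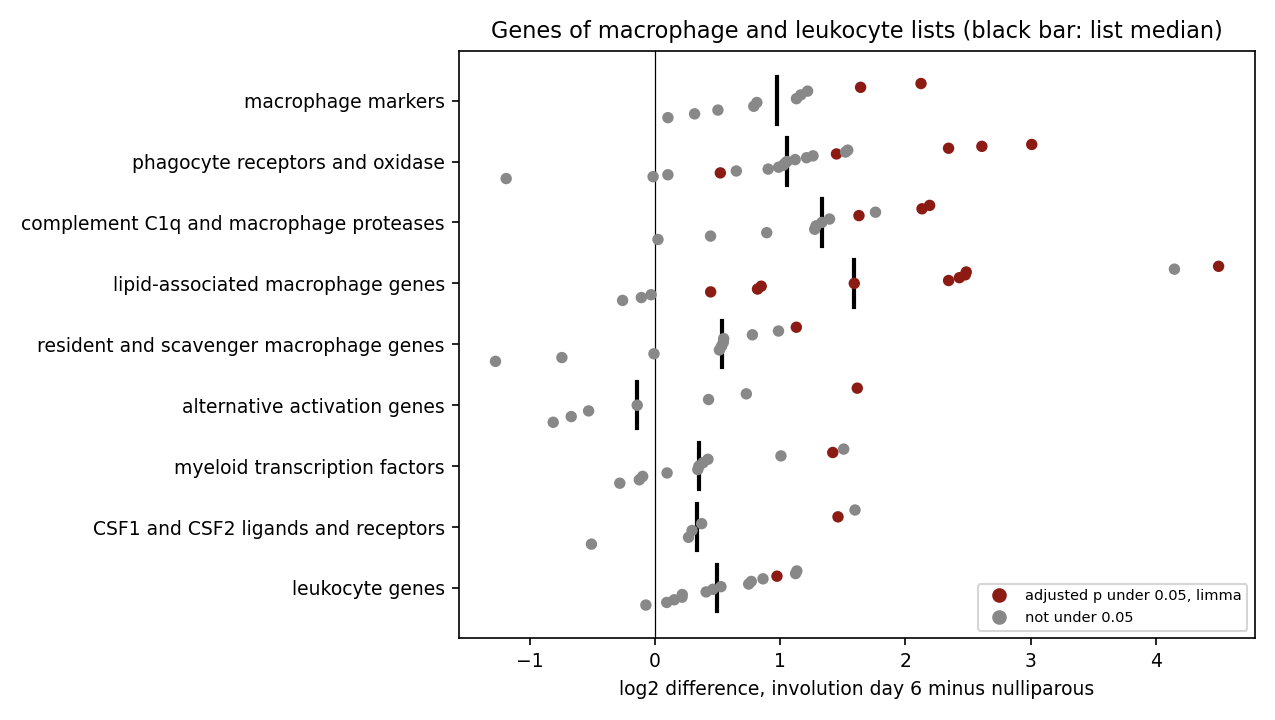
Log2 difference, involution day 6 minus nulliparous (x axis), of each tested gene in 9 lists (y axis), with genes past an adjusted p of 0.05 in red and the list median as a black bar. The medians run from -0.14 for alternative activation genes to 1.59 for lipid-associated genes.

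Markers of other cells that a sort could hold were measured too, and not all of them followed the order of the libraries seen for the macrophage markers. Of 14 further leukocyte genes, Arhgdib rose 1.96-fold and 0 fell, with a median of 0.49, and Lcp1 differed by 0.46 (adjusted p = 0.615 in limma). Their sum was 65.6 and 40.4 ppm in the nulliparous libraries and 118, 78.0 and 47.1 at involution day 6. Of 8 monocyte markers 6 were tested and 0 passed, with a median of 0.36. Their sum was 17564 and 18775 ppm, then 8388, 10223 and 9617, lowest in involution replicate 1. Fn1, which fibroblasts express strongly, made up most of that list's sum and was lower by 0.83 without passing (adjusted p = 0.192 in limma). Ear2 had the smallest p of that list (adjusted p = 0.0827 in limma). Of 11 neutrophil markers 5 were tested and Mmp8 rose 4.12-fold. Ly6g, Camp, Ngp and Elane were under 3 units in every library, and the sum was 3.98 and 2.76 ppm in the nulliparous libraries and 7.74, 10.6 and 7.22 at involution day 6, highest in replicate 2. Of 9 dendritic cell markers Zbtb46 fell by 0.87 and 0 rose, with a median of -0.03, and the sum was 54.4 to 57.9 and then 30.2 to 37.5 ppm. Zbtb46 made up most of that sum in every library. The mean log2 value of the list overlapped between the groups, at 6.25 and 5.98 and then 6.69, 6.02 and 5.89.

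Lymphoid markers were also present. Of 9 tested T and NK cell markers 0 passed, with a median of 0.39. Their list's sum was 8.03 and 7.98 ppm in the nulliparous libraries and 12.9, 23.1 and 16.0 at involution day 6. Within the involution group it was lowest in replicate 1. Cd3e, a chain of the T cell receptor complex, made up most of that sum in every library and differed by 1.56 (adjusted p = 0.0550 in limma). Of 8 B and plasma cell markers Jchain, the joining chain of secreted antibodies, rose 29.3-fold and Igkc, the kappa constant region, 24.7-fold. Their list's sum was 15.8 to 18.4 ppm in nulliparous libraries and 315, 146 and 78.8 in involution replicates 1, 2 and 3. Igkc and Jchain made up most of the sum in the involution libraries. Of the 8 genes 4 had a difference above 0, with a median of 0.06. The groups did not overlap for 3 genes higher and 3 lower at involution day 6, against 21.9% and 25.1% of all genes.

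For epithelial, milk protein, endothelial and mast cell genes, nulliparous replicate 1 and involution replicate 1 were also the highest libraries of their groups. Epithelial markers, of which 0 of 11 passed, summed to 674 and 248 ppm in the nulliparous libraries and 304, 129 and 62.2 at involution day 6, with a median difference of -1.29. Krt19 had the highest mean of them, with a difference of -1.99 (adjusted p = 0.0648 in limma). Milk protein genes summed to 467 and 24.9, then 1726, 596 and 266 ppm, and of 6 genes Wap, with a nulliparous mean below the filter, passed as higher while Csn2 differed by 3.27 (adjusted p = 0.200 in limma). Endothelial markers, of which 0 of 7 passed, summed to 251 and 98.4, then 199, 91.8 and 66.2 ppm, with a median of -0.42. Kdr, a VEGF receptor, differed by -0.11 and Vwf, the von Willebrand factor gene, by -1.01 (adjusted p = 0.787 and 0.449 in limma). Mast cell markers, of which 0 of 5 tested passed, summed to 155 and 55.3, then 65.4, 19.2 and 8.29, with a median of -1.85. The receptor gene Kit differed by -1.85 and the protease gene Mcpt4 by -1.96 (adjusted p = 0.204 and 0.164 in limma). Pericyte markers, of which 0 of 7 passed, summed to 262 and 273, then 176, 147 and 115, with a median of -0.55. Abcc9 differed by -0.56 and Notch3 by -1.55 (adjusted p = 0.150 and 0.0543 in limma). The 4 adipocyte markers were below the filter, at 0.325 to 2.06 ppm in sum. Of 10 fibroblast markers 0 passed, with a median of 0.27, and Col3a1 and Lum, both matrix genes, differed by 0.24 and 0.59 (adjusted p = 0.865 and 0.125 in limma). Of 7 early response genes of dissociation 0 passed, with a median of 0.18, and Egr1 and Hspa1a differed by 0.18 and -1.58 (adjusted p = 0.733 and 0.257 in limma). The part of these cell types in the macrophage marker differences was not tested.

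**Figure D5:**
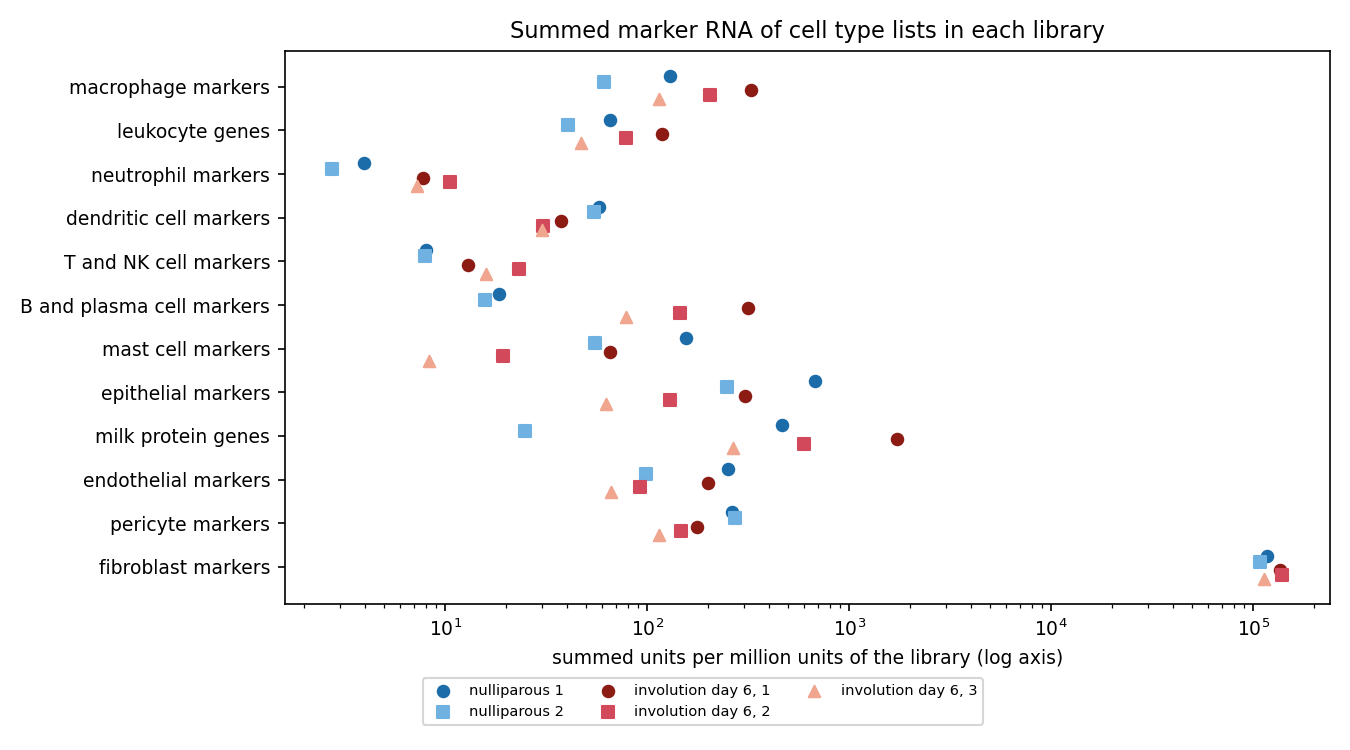
Summed ppm of the units of the library (x axis, log scale) of 12 marker lists (y axis) in the 5 libraries. Macrophage markers run from 61.3 to 326 ppm and fibroblast markers from 108297 to 139099.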

How the data were processed

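RNA was sequenced from 5 libraries, made with the TruSeq RNA V2 kit per the labels' protocols. That kit does not mark strand. The submitters' processing notes name bcl2fastq, STAR 2.4.2a and GRCm38. How reads were counted, annotated and scaled is not given in the sources used here. Deposited was a table of log2 values, with a column for each library, in which 17395 of 45706 rows had no reads. Symbols missing from the table were filled by Ensembl gene ID for 22302 rows, and 422 rows kept the ID alone. Coordinates (1-based, GRCm38) and exon lengths came from GENCODE M21. Mitochondrial transcripts were not analysed here.

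Groups were compared by limma 3.58.1 under R 4.3.3, fitted to the log2 values of all 5 libraries. The moderated two-sided test let the prior variance follow mean expression, with Benjamini-Hochberg adjustment at 0.05. Genes entered with a mean of at least 4.45, which is 10 units above the offset. Units are unlogged values minus those of a row without reads, and negative units of a gene were counted as none. Whole reads were not recovered from these values, so no count test or counting interval was used, and precision rests on the spread between libraries. The test was also run on simulated data with independent noise for each gene. Such data cannot show how it behaves for markers that move together, and nothing is drawn from that run. The promoter letters were chosen after the sequences were seen. The members, lists and this filter were chosen with earlier results of these data known. Named were all 10 markers, the member with the highest mean and with the smallest p of each list, every member called (the 4 with the smallest p beyond 6), and the 10 genes most alike in pattern. Spi1, Il34, Lyve1, Chil3, Trem2 and other genes outside that rule were chosen after their values were seen.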

Additional observations from a re-analysis of the deposited data

How the results depend on the processing

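Of 15 alternatives, the median difference of the macrophage markers kept its sign in all, from 0.55 to 1.35, and 0 markers were lower in any. The count of markers higher was 2 in the chosen fit, 0 with every row with reads, without a filter or without the trend of the prior variance. It was 1 with a robust prior, where Adgre1 passed and Lyz2 did not. It was 9 with the replicate block, and 0, 0 and 3 without involution replicate 1, 2 or 3. In the block involution replicate 3 has no nulliparous partner, so its differences equal those of the fit without that library. The median of the markers was 1.35 in both, and the block leaves 1 residual degree of freedom. All genes higher and lower numbered 1058 and 742. They were 322 and 235 with every row with reads, 147 and 180 without a filter, 686 and 482 without the trend, and 1817 and 1449 with the replicate block. Scaling to the same total gave 803 higher and 1731 lower, 31.7% higher against 58.8%, and moved the median of all genes to -0.16. With 1 library left out they ran from 296 to 786 and from 208 to 483. The other macrophage genes called higher numbered 20, and 9, 4, 11 and 46 with every row with reads, without a filter, with the stricter filter and with the replicate block, and 7 to 23 with 1 library left out. Those called lower numbered 0, and 1 with the same total and 3 with the block, and 0 to 3 with 1 library left out.

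The sign of Aif1 reversed with the same total (-0.014) and with 1 library left out (-0.41 to 0.62), that of Cd163 (-0.065 to 1.07) and of Ptprc (-0.086 to 0.82) with 1 library left out. The cause was not tested. With 1 library left out of the nulliparous group, the lone library is assumed to vary like the others. Same-numbered libraries of the 2 groups share a number in the labels and no stated source. Deviations from the group means correlated at 0.577 for the libraries numbered 1 and at 0.0628 for those numbered 2. Nulliparous replicate 2 and involution replicate 3 correlated at 0.51. The deviations of the 2 nulliparous libraries mirror each other, so these values are not separate and cannot decide a pairing. With no stated source, the block is not taken as a pairing. Depth cannot be separated from scaling in these values.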
